A study of Arabidopsis thaliana with 8 samples.

Results

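The cell cycle genes described here are 45 Arabidopsis loci of the 27826 on the arrays: 7 A-type cyclins, 9 B-type cyclins, 10 D-type cyclins, 5 cyclin-dependent kinases (CDKs) of the CDKA and CDKB classes, 7 KIP-related proteins (KRP1 to KRP7), the 2 inhibitors SIM and SMR1, and 5 genes of cytokinesis and the Aurora kinases. They were listed by locus code, with earlier results of these data known, and all 45 were found. Arabidopsis thaliana is a weedy relative of mustard and a standard model in plant genetics. RNA from shoots was hybridised to 8 Affymetrix arrays, 2 for each of 4 groups. Submerged adult plants (3 weeks old) and submerged juvenile plants (2 weeks old) stood under deionised water in darkness for 24 h. Dark adult plants (3 weeks old) and dark juvenile plants (2 weeks old) stood for 24 h in tanks without water, so every group, controls included, had been in the dark for a day. The labels name no accession, mutation or transgene, and do not say whether the arrays of a group came from separate plants or pools, so p-values measure only the spread between these samples. Because sample titles call the submerged plants dark, groups were taken from the descriptions, which name submergence.

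In plants, cyclins bind CDKs and switch them on at set points of the division cycle. D-type cyclins with CDKA phosphorylate the retinoblastoma protein and open the way to DNA synthesis, A-type cyclins act from DNA synthesis to early mitosis, and B-type cyclins with CDKA and the plant-specific CDKB kinases drive mitosis. KRP proteins and the SIM and SMR proteins bind cyclin-CDK complexes and restrain them, and in leaves SIM and SMR1 favour endoreduplication, in which DNA is copied without division. KNOLLE, the phragmoplast kinesins KINESIN-12A and KINESIN-12B and the Aurora kinases serve the end of the cycle, when chromosomes part and a new wall divides the cell.

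All values are deposited log2 levels, 1 per locus and array, and range from 1.86 to 13 over all loci. A difference of 1 is a 2-fold change. Since each locus has its own probes, levels were compared between arrays and not between genes. A gene was called when limma's moderated test, fitted to all loci on all arrays with Benjamini-Hochberg adjustment over all loci, gave an adjusted p under 0.05. Array medians lay between 6.13 and 6.3, and replicate arrays correlated across loci at 0.99 to 0.995. RBCS1A (AT1G67090), the Rubisco small subunit gene that marks green tissue, lay between 12.6 and 12.8 on every array, but of the 5 leaf markers 1 was called in adult and 3 in juvenile shoots. CA1, a carbonic anhydrase gene, was lower under water at both ages, at -1.27 in adult and -1.43 in juvenile shoots (adjusted p = 0.000848 and 0.000471). In juvenile shoots RBCS3B was lower, at -0.83 (adjusted p = 0.0227), and CAB2 higher, at 1.22 (adjusted p = 0.00961), while RCA was called at neither age. The root hair markers EXPA7, COBL9 (named SHV2 in RefSeq) and LRX1 and the root iron transporter IRT1 lay between 2.45 and 3.49, near the bottom of the scale, while PYK10, a beta-glucosidase abundant in roots, lay between 7.42 and 10.7.

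At both ages more of the division genes were lower than higher under water. In adult shoots 20 of the 45 were lower and 5 higher, beside 18.9% of all loci lower and 14.6% higher. In juvenile shoots 18 were lower and 4 higher, beside 18.8% and 15.5% of all loci. The median difference, submerged minus dark, was -0.54 in adult and -0.49 in juvenile shoots, while over all loci it was -0.02 in adult and -0.05 in juvenile shoots. Without the dimmest 50% of loci, which left 17 of the 45 genes, the median was -0.33 in adult and -0.16 in juvenile shoots. Of the calls, 16 in adult and 13 in juvenile shoots reached 2-fold, beside 4653 and 4803 of the 27826 loci. At both ages 16 of the 45 genes were lower and 4 higher. Of the rest, 5 were called in adult shoots alone, 2 in juvenile shoots alone, and 18 at neither age. Averaged over the 45 genes, the level was 5.26 and 5.33 on the submerged adult arrays, 5.62 and 5.63 on the submerged juvenile arrays, 5.79 and 5.80 on the dark adult arrays, and 6.07 and 6.08 on the dark juvenile arrays. In whole shoots, fewer dividing cells and less RNA per dividing cell cannot be told apart. Centring the arrays on their medians, which differed by 0.13 between submerged and dark juvenile arrays, raised the background of lower calls in juvenile shoots to 25.2% of loci, with 13.2% higher.

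**Figure D1:**
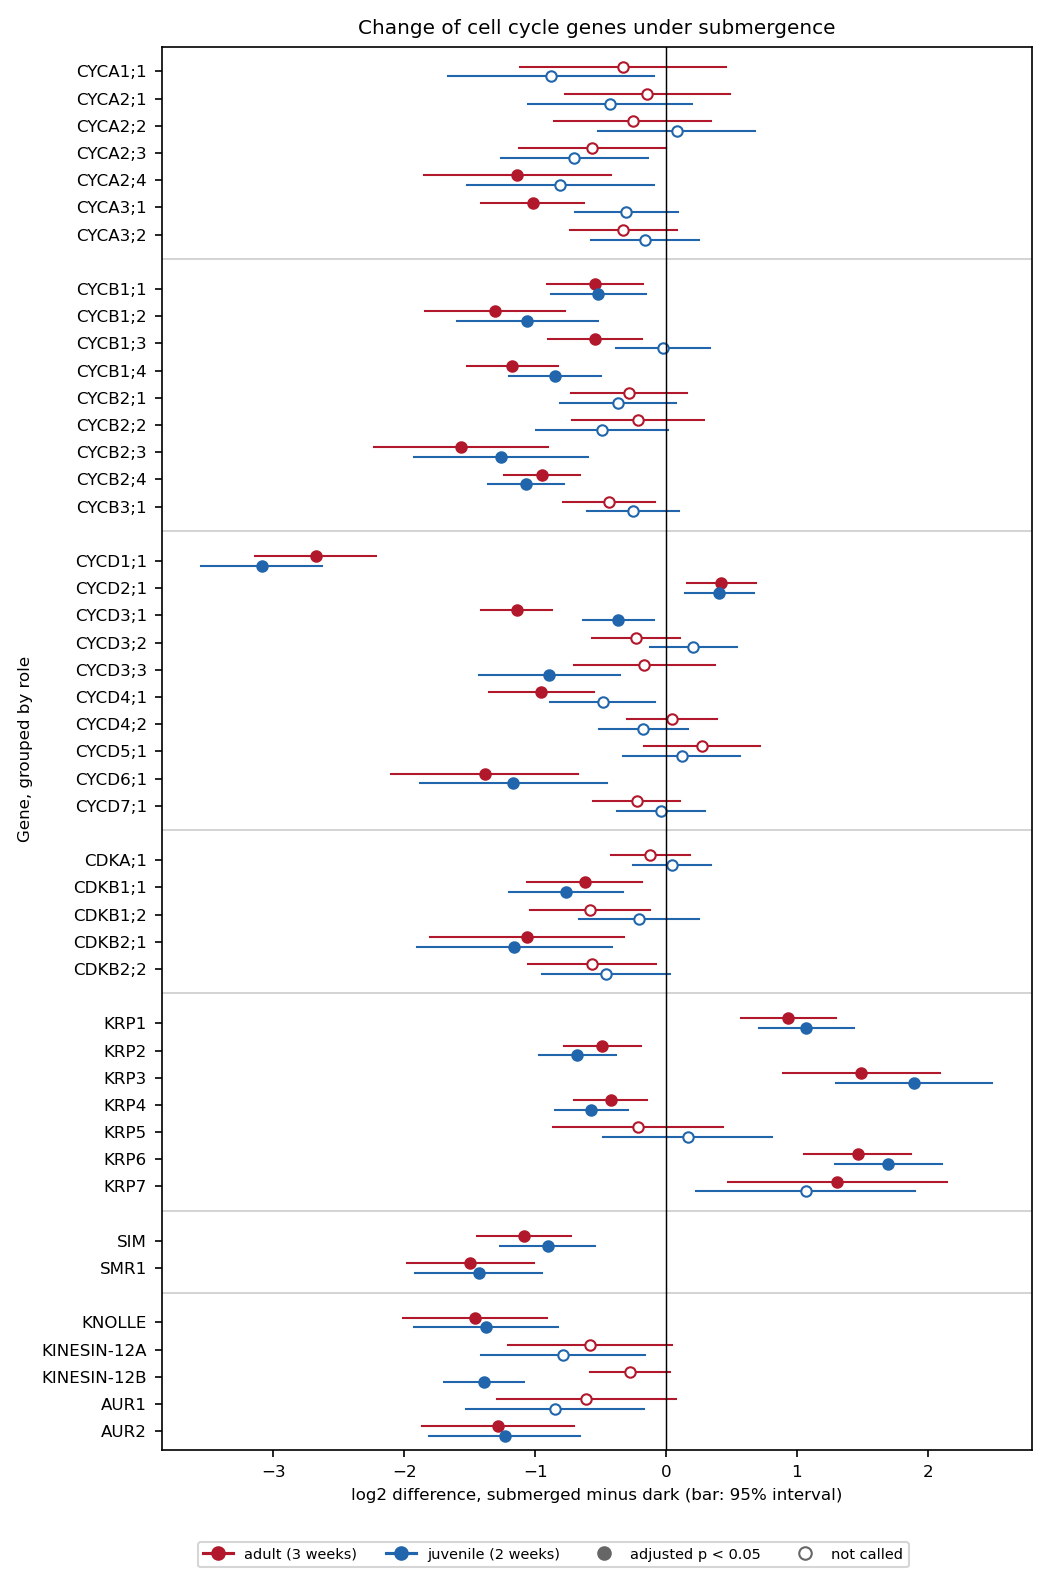
Difference in log2 level, submerged minus dark, for each of the 45 genes in adult and juvenile shoots, grouped by role. Points are limma estimates, bars are 95% intervals and filled points have an adjusted p under 0.05. B cyclins lie left of 0 at both ages, CYCD1;1 has the lowest value at both ages, and KRP1, KRP3, KRP6 and KRP7 lie right of 0.

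D-type cyclins, which bring external and sugar signals to the cycle, moved in both directions. Of the 10 genes, 4 were lower and 1 higher at each age. That is 50% called, beside 33.6% of all loci in adult and 34.2% in juvenile shoots. CYCD1;1 (AT1G70210), known for advancing the start of division in germinating seeds, gave 5.31 and 5.37 in submerged adult shoots, against 7.95 and 8.08 in dark adult shoots. Its juvenile arrays gave 5.39 and 5.69 under water, against 8.89 and 8.37 in the dark. All 4 submerged arrays lay at or below 5.69 and all 4 dark arrays at or above 7.95. The difference was -2.68 ± 0.20 (SE) in adult and -3.09 ± 0.20 in juvenile shoots (limma adjusted p = 9.51e-05 and 4.74e-05), or 6.39-fold and 8.51-fold lower, the largest change of any of the 45 genes at both ages.

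CYCD6;1 (AT4G03270), known from the formative divisions of the root ground tissue, was lower by more than 2-fold at both ages. It gave 4.84 and 5.66 in submerged adult shoots, against 6.51 and 6.76 in dark adult shoots, a difference of -1.39 (adjusted p = 0.0113). Juvenile shoots gave 6.30 and 5.90 under water, against 7.03 and 7.51 in the dark, a difference of -1.17 (adjusted p = 0.0223). The groups did not overlap at either age, although the submerged adult arrays were farther apart than the dark adult arrays.

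CYCD3;1 (AT4G34160), a cyclin induced by cytokinin and sugar that keeps leaf cells dividing, gave 6.77 and 6.75 in submerged adult shoots, against 7.96 and 7.84 in dark adult shoots. In juvenile shoots it gave 8.20 and 8.16 under water, against 8.47 and 8.61 in the dark. Both submerged groups lay below their dark groups, and the submerged adult arrays lay below all other arrays. The difference was -1.14 ± 0.11 in adult (adjusted p = 0.000351) and -0.36 ± 0.11 in juvenile shoots (adjusted p = 0.0459), and the juvenile call was lost without any 1 of the 8 arrays (adjusted p up to 0.233).

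The related CYCD3;3 (AT3G50070) was called in juvenile shoots, at -0.89 (adjusted p = 0.0213), and not in adult shoots, at -0.17 (adjusted p = 0.633). CYCD4;1 (AT5G65420), of a class active in the stomatal lineage of the hypocotyl, was called in adult shoots, at -0.95 (adjusted p = 0.0048). It was not called in juvenile shoots, at -0.48 (adjusted p = 0.0672). Its submerged adult arrays, at 3.00 and 2.63, lay near the bottom of the scale. Neither gene's responses were shown to differ between the ages, since the test of the difference called none of the 45. CYCD2;1 (AT2G22490), a sugar-responsive partner of CDKA, was the D cyclin that rose. It gave 7.95 and 8.00 in submerged adult shoots, against 7.59 and 7.52 in dark adult shoots, and 7.87 and 7.88 in submerged juvenile shoots, against 7.54 and 7.39 in dark juvenile shoots. Its submerged arrays all lay above its dark arrays, by 0.42 in adult and 0.41 in juvenile shoots (adjusted p = 0.0253 and 0.0282). The juvenile call was lost when arrays were centred on their medians.

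The remaining D cyclins, CYCD3;2 (AT5G67260), CYCD4;2 (AT5G10440), CYCD5;1 (AT4G37630) and CYCD7;1 (AT5G02110), were not called, with differences between -0.23 and 0.27. CYCD4;2 had the smallest adult difference, with 3.07 and 3.38 under water against 3.11 and 3.25 in the dark. CYCD7;1, a regulator of the last division before the guard cells, had the smallest juvenile difference, with 2.94 and 2.95 under water against 2.98 and 2.99 in the dark. Both sat near the bottom of the scale. Of the D cyclin calls, CYCD1;1 kept its call at both ages, and CYCD3;1 and CYCD4;1 in adult shoots, when each array was left out. CYCD6;1 lost its adult call without dark adult replicate 2 (adjusted p = 0.0673) and its juvenile call without submerged juvenile replicate 2 or dark juvenile replicate 2. CYCD3;3 and CYCD2;1 lost their calls without 1 of several arrays of the ages compared.

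**Figure D2:**
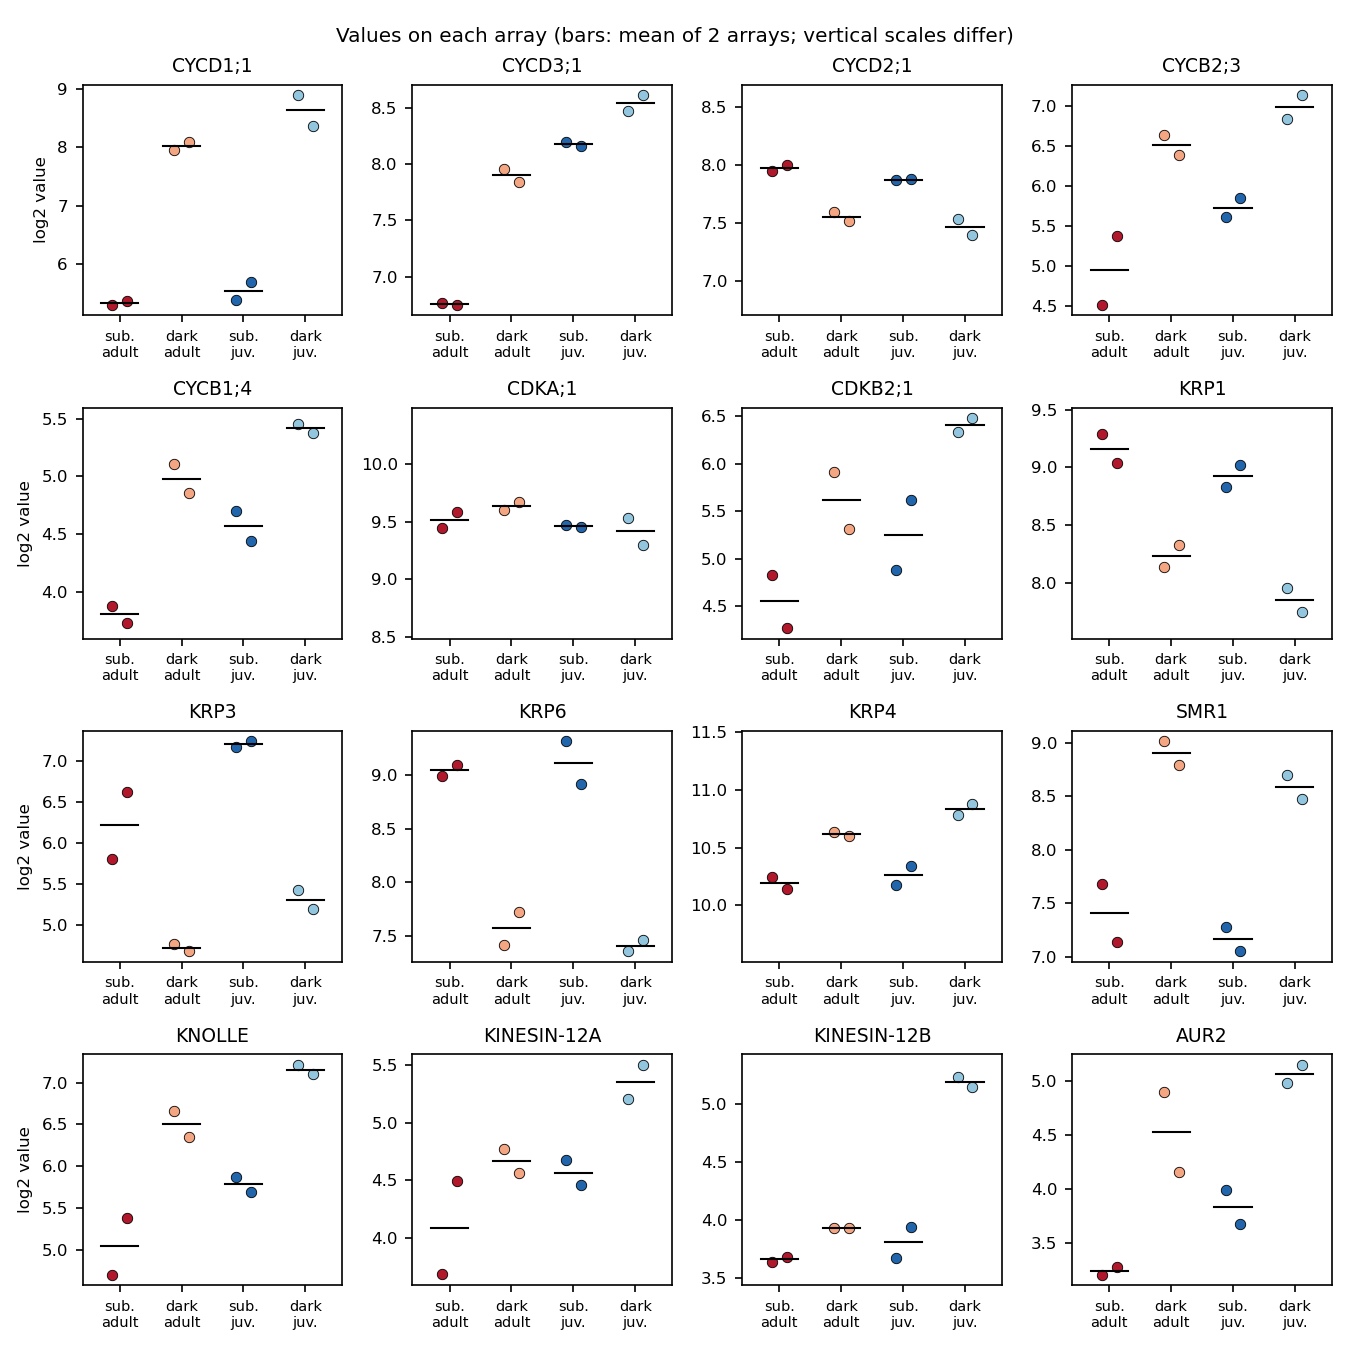
Deposited log2 level of 16 genes on each of the 8 arrays, with the groups on the x axis and 1 point per array, short bars marking group means. Each panel has its own axis and spans at least 2 log2 units. In the CYCD1;1 panel all 4 submerged arrays lie below 6 and all 4 dark arrays above 7, and the CYCD3;1 panel has its lowest points, 6.77 and 6.75, in submerged adult shoots.

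A-type cyclins had the smallest share of calls at both ages. In adult shoots 2 of 7 were lower, and in juvenile shoots none of the 7 was called, although 3 had an unadjusted p under 0.05. These shares of 28.6% and 0% lay below the 33.6% and 34.2% of all loci called. CYCA2;4 (AT1G80370), of the A2 class that limits endoreduplication, gave 4.77 and 5.62 in submerged adult shoots, against 6.63 and 6.03 in dark adult shoots. Its juvenile arrays gave 6.60 and 6.69 under water, against 7.35 and 7.56 in the dark. The groups did not overlap at either age. The difference was -1.14 ± 0.30 in adult (adjusted p = 0.0254) and -0.81 ± 0.30 in juvenile shoots (adjusted p = 0.0814). Without submerged adult replicate 1 or dark adult replicate 1 the adult call was lost (adjusted p up to 0.135).

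CYCA3;1 (AT5G43080), of the A3 class that acts around the start of DNA synthesis, gave 4.63 and 4.58 in submerged adult shoots, against 5.78 and 5.46 in dark adult shoots. Juvenile shoots gave 5.45 and 5.13 under water, against 5.67 and 5.51 in the dark. The submerged adult arrays were the 2 lowest of the 8. The adult difference of -1.02 ± 0.17 (adjusted p = 0.00315) kept its call without each array, and the juvenile difference was -0.30 (adjusted p = 0.212).

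The A cyclins with the smallest differences were CYCA2;1 (AT5G25380) in adult shoots, at -0.14 (95% interval -0.77 to 0.49), and CYCA2;2 (AT5G11300, CYC3B in RefSeq) in juvenile shoots, at 0.08 (-0.52 to 0.68). CYCA2;1 gave 3.43 and 2.73 in submerged adult shoots, against 3.00 and 3.44 in dark adult shoots, with overlapping groups. CYCA2;2 gave 5.72 and 5.88 in submerged juvenile shoots, between the 5.35 and 6.09 of dark juvenile shoots. CYCA1;1 (AT1G44110), CYCA2;3 (AT1G15570) and CYCA3;2 (AT1G47210) had differences of -0.33, -0.56 and -0.33 in adult and -0.88, -0.70 and -0.16 in juvenile shoots, none of them called.

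B-type cyclins, the mitotic class, were uniform in direction. All 9 estimates were negative at both ages, as deposited and after quantile normalization or median centring. Over all loci, 51.6% of estimates in adult and 54.7% in juvenile shoots were negative as deposited, and 48.3% and 66.6% after centring. In adult shoots 6 of the 9 were called lower, beside 18.9% of all loci, and in juvenile shoots 5, beside 18.8%. None was called higher. CYCB2;3 (AT1G20610) had the largest difference at both ages. It gave 4.51 and 5.38 in submerged adult shoots, against 6.63 and 6.38 in dark adult shoots, and 5.61 and 5.85 in submerged juvenile shoots, against 6.84 and 7.14 in dark juvenile shoots. Every submerged array lay below every dark array. The difference was -1.56 ± 0.28 in adult (adjusted p = 0.00494) and -1.26 ± 0.28 in juvenile shoots (adjusted p = 0.0123).

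CYCB1;2 (AT5G06150, CYC1BAT in RefSeq) gave 3.02 and 2.76 in submerged adult shoots, against 3.97 and 4.42 in dark adult shoots. In juvenile shoots it gave 2.93 and 2.98 under water, against 3.73 and 4.29 in the dark. The submerged arrays lay at or below 3.02, near the bottom of the scale, and the dark arrays at or above 3.73. The differences were -1.30 in adult and -1.06 in juvenile shoots (adjusted p = 0.00427 and 0.0104). CYCB1;4 (AT2G26760) gave 3.88 and 3.73 in submerged adult shoots, against 5.11 and 4.85 in dark adult shoots, and 4.70 and 4.44 in submerged juvenile shoots, against 5.46 and 5.38 in dark juvenile shoots. Its differences were -1.18 in adult and -0.85 in juvenile shoots (adjusted p = 0.000961 and 0.00413). CYCB2;4 (AT1G76310) gave 4.06 and 3.88 in submerged adult shoots, against 4.86 and 4.98 in dark adult shoots, and 4.60 and 4.50 in submerged juvenile shoots, against 5.66 and 5.59 in dark juvenile shoots. Its groups stood well apart, by -0.95 in adult and -1.07 in juvenile shoots (adjusted p = 0.00114 and 0.000633).

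CYCB1;1 (AT4G37490), a common marker of cells in late cycle that is also induced by DNA damage, was lower at both ages, with differences of -0.54 in adult and -0.52 in juvenile shoots (adjusted p = 0.0324 and 0.0383). CYCB1;3 (AT3G11520) was called in adult shoots, at -0.54 (adjusted p = 0.0303), and had the smallest juvenile difference of the class, at -0.02 (95% interval -0.38 to 0.34). On the arrays it gave 3.71 and 3.83 in submerged adult shoots against 4.36 and 4.28 in dark adult shoots, and 3.91 and 3.99 in submerged juvenile shoots against 4.16 and 3.78 in dark juvenile shoots. The juvenile groups overlapped and the adult groups did not. CYCB2;1 (AT2G17620), CYCB2;2 (AT4G35620) and CYCB3;1 (AT1G16330) were not called, with differences of -0.28, -0.21 and -0.43 in adult and -0.37, -0.49 and -0.25 in juvenile shoots. CYCB2;2, the smallest in adult shoots, gave 3.54 and 3.45 under water there, against 3.50 and 3.91 in the dark. CYCB2;1 and CYCB3;1 sat near the bottom of the scale.

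CYCB1;4 and CYCB2;4 kept their calls at both ages when each array was left out, as did CYCB1;2 and CYCB2;3 in adult shoots. The juvenile calls of the last 2 were lost without submerged juvenile replicate 1 or dark juvenile replicate 2 (adjusted p up to 0.0578 for CYCB1;2 and 0.0735 for CYCB2;3). The smaller changes of CYCB1;1 and CYCB1;3 lost their calls without several single arrays (adjusted p up to 0.187).

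Of the 5 CDKs, 2 of the plant-specific B class were lower at each age, and no other CDK was called. That is 40% called, beside 33.6% of all loci in adult and 34.2% in juvenile shoots. CDKA;1 (AT3G48750, CDC2 in RefSeq), the kinase used throughout the cycle, gave 9.44 and 9.58 in submerged adult shoots, against 9.60 and 9.67 in dark adult shoots. Its juvenile arrays gave 9.47 and 9.45 under water, between the 9.53 and 9.30 of dark shoots. Its differences were the smallest of the class, at -0.12 in adult (95% interval -0.42 to 0.18) and 0.05 in juvenile shoots (-0.25 to 0.35). A change of 2-fold lay outside both intervals.

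CDKB2;1 (AT1G76540), a mitotic kinase of dividing tissues, gave 4.83 and 4.27 in submerged adult shoots, against 5.92 and 5.32 in dark adult shoots. Juvenile shoots gave 4.88 and 5.62 under water, against 6.33 and 6.48 in the dark. Groups did not overlap at either age, and the differences were -1.06 in adult and -1.16 in juvenile shoots (adjusted p = 0.0379 and 0.0271). CDKB1;1 (AT3G54180), which acts in stomatal divisions and restrains endoreduplication, was lower as well, at -0.62 in adult and -0.76 in juvenile shoots (adjusted p = 0.0387 and 0.0174). Each of these 4 calls was lost without 1 of several arrays (adjusted p up to 0.198). CDKB1;2 (AT2G38620) and CDKB2;2 (AT1G20930) were not called, at -0.58 and -0.56 in adult and -0.21 and -0.46 in juvenile shoots. CDKB1;2 lay between 2.29 and 3.16 on all arrays, near the bottom of the scale.

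The KRP inhibitors split into genes that rose and genes that fell. KRP3, KRP6 and KRP1 were higher at both ages, KRP7 in adult shoots, and KRP2 and KRP4 were lower at both ages. In adult shoots 4 of 7 were thus higher and 2 lower, beside 14.6% and 18.9% of all loci. In juvenile shoots 3 were higher and 2 lower, beside 15.5% and 18.8%. KRP3 (AT5G48820, ICK6 in RefSeq) gave 5.80 and 6.63 in submerged adult shoots, against 4.76 and 4.68 in dark adult shoots. In juvenile shoots it gave 7.17 and 7.24 under water, against 5.43 and 5.19 in the dark. Every submerged array was above every dark array, by 1.49 ± 0.25 in adult (adjusted p = 0.00382) and 1.90 ± 0.25 in juvenile shoots (adjusted p = 0.00122), or 2.81-fold and 3.72-fold.

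KRP6 (AT3G19150), known from the germline of pollen, gave 8.99 and 9.09 in submerged adult shoots, against 7.42 and 7.73 in dark adult shoots. Its juvenile arrays gave 9.31 and 8.91 under water, against 7.36 and 7.47 in the dark. The submerged arrays lay at or above 8.91 and the dark arrays at or below 7.73, with differences of 1.46 in adult and 1.70 in juvenile shoots (adjusted p = 0.000729 and 0.000355). KRP1 (AT2G23430, ICK1 in RefSeq), which slows division when overexpressed in leaves, gave 9.29 and 9.04 in submerged adult shoots, against 8.13 and 8.32 in dark adult shoots, and 8.83 and 9.02 in submerged juvenile shoots, against 7.95 and 7.74 in dark juvenile shoots. Its differences were 0.93 in adult and 1.07 in juvenile shoots (adjusted p = 0.00326 and 0.00166), again without overlap.

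KRP7 (AT1G49620, ICK5 in RefSeq) gave 7.69 and 8.10 in submerged adult shoots, against 6.36 and 6.82 in dark adult shoots, a difference of 1.31 (adjusted p = 0.0267). Juvenile shoots gave 8.32 and 7.41 under water, against 7.11 and 6.48 in the dark, a difference of 1.07 that was not called (adjusted p = 0.0551). Its 2 submerged juvenile arrays were farther apart than those of its other groups. KRP2 (AT3G50630), a regulator of the switch to endoreduplication in leaves, was lower, at -0.49 in adult and -0.68 in juvenile shoots (adjusted p = 0.0214 and 0.00513). KRP4 (AT2G32710) was lower, at -0.42 in adult and -0.57 in juvenile shoots (adjusted p = 0.0309 and 0.00874). KRP5 (AT3G24810, ICK3 in RefSeq) had the smallest differences, at -0.21 and 0.17. It gave 6.03 and 6.50 in submerged adult shoots, against 6.23 and 6.73 in dark adult shoots, and 6.96 and 6.38 in submerged juvenile shoots, against 6.65 and 6.35 in dark juvenile shoots. KRP1, KRP3 and KRP6 kept their calls without each array at both ages, and KRP2 in juvenile shoots. KRP7 lost its adult call without any 1 of the 4 adult arrays (adjusted p up to 0.135), and KRP4 its juvenile call without dark juvenile replicate 2 (adjusted p = 0.0633). The adult calls of KRP2 and KRP4 were lost without 1 of several arrays (adjusted p up to 0.126).

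Unlike those 4 KRP genes, SIM and SMR1, inhibitors of the other plant family, were lower under water at both ages. SIM (AT5G04470), which keeps leaf hairs single-celled, gave 6.85 and 6.89 in submerged adult shoots, against 7.98 and 7.93 in dark adult shoots, and 6.58 and 6.94 in submerged juvenile shoots, against 7.77 and 7.55 in dark juvenile shoots. SMR1 (AT3G10525, LGO in RefSeq), needed for the giant cells of sepals and leaves, gave 7.68 and 7.14 in submerged adult shoots, against 9.02 and 8.80 in dark adult shoots, and 7.27 and 7.05 in submerged juvenile shoots, against 8.70 and 8.48 in dark juvenile shoots. For both genes all 4 submerged arrays lay below all 4 dark arrays. SIM differed by -1.09 in adult and -0.90 in juvenile shoots (adjusted p = 0.00163 and 0.00367), and SMR1 by -1.49 and -1.43 (adjusted p = 0.00145 and 0.00171). All 4 calls held without each array.

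In the cytokinesis and Aurora group all 5 estimates were negative at both ages, beside 51.6% of all loci in adult and 54.7% in juvenile shoots. Called genes numbered 2 in adult and 3 in juvenile shoots. Those are 40% and 60% of the group, beside 33.6% and 34.2% of all loci called. KNOLLE (AT1G08560, SYP111 in RefSeq), the syntaxin that fuses vesicles at the forming cell plate, gave 4.70 and 5.38 in submerged adult shoots, against 6.66 and 6.34 in dark adult shoots. In juvenile shoots it gave 5.87 and 5.69 under water, against 7.21 and 7.10 in the dark. The groups did not overlap, with differences of -1.46 in adult and -1.38 in juvenile shoots (adjusted p = 0.00283 and 0.00364). AUR2 (AT2G25880), an Aurora kinase of the mitotic spindle and cell plate, gave 3.21 and 3.28 in submerged adult shoots, against 4.90 and 4.16 in dark adult shoots, and 3.99 and 3.67 in submerged juvenile shoots, against 4.98 and 5.15 in dark juvenile shoots. Its differences were -1.28 in adult and -1.23 in juvenile shoots (adjusted p = 0.00636 and 0.00735), without overlap. The submerged adult arrays of AUR2 lay near the bottom of the scale.

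KINESIN-12B (AT3G23670), a motor at the midline of the phragmoplast, gave 3.63 and 3.68 in submerged adult shoots, against 3.93 and 3.93 in dark adult shoots. Its juvenile arrays gave 3.67 and 3.94 under water, against 5.24 and 5.15 in the dark. The dark juvenile arrays were the only ones above 5, and the other 6 lay between 3.63 and 3.94. The juvenile difference was -1.39 ± 0.13 (adjusted p = 0.000228), and the adult difference was -0.27 ± 0.13 (adjusted p = 0.15). KINESIN-12A (AT4G14150, PAKRP1 in RefSeq), its partner at the same site, gave 3.68 and 4.49 in submerged adult shoots, against 4.77 and 4.56 in dark adult shoots, and 4.67 and 4.46 in submerged juvenile shoots, against 5.21 and 5.50 in dark juvenile shoots. Its groups did not overlap, but differences of -0.58 and -0.79 were not called (adjusted p = 0.141 and 0.0576). AUR1 (AT4G32830) was also not called, at -0.61 in adult and -0.85 in juvenile shoots (adjusted p = 0.155 and 0.0608). The calls of KNOLLE and AUR2 at both ages, and of KINESIN-12B in juvenile shoots, held without each array.

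Between the ages few division genes were called, and all of those were lower in adult shoots. In the dark, 1 of 45 was called, beside 0.0539% of all loci, and under water 1, beside 0.126%. With both treatments averaged, 3 were called, beside 0.352% of loci. KINESIN-12B was the gene called in the dark, at -1.26 ± 0.13 (adjusted p = 0.0456), adult minus juvenile, with the values given above. CYCD3;1 was the gene called under water, at -1.42 ± 0.11 (adjusted p = 0.0253), with 6.77 and 6.75 in submerged adult shoots against 8.20 and 8.16 in submerged juvenile shoots. On average over the treatments, CYCD3;1 differed by -1.03 (adjusted p = 0.0242), KINESIN-12B by -0.71 (adjusted p = 0.0475) and CYCB2;4 by -0.64 (adjusted p = 0.0478). For CYCB2;4 the adult arrays lay below the juvenile arrays in each treatment.

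The other genes gave no call between the ages, yet more of them had negative than positive estimates. Negative estimates made up 71.1% of the 45 genes in the dark, 75.6% under water and 73.3% on average, while over all loci they made up 49.1%, 47.2% and 47.8%. With arrays centred on their medians the share under water was 62.2% of the 45 genes and 30.4% of all loci. The median was -0.23 in the dark, -0.21 under water and -0.25 on average, where the all-loci median was within 0.02 of 0. CYCA2;4 had the largest uncalled difference under water, at -1.45 (adjusted p = 0.144), and on average, at -1.28 (adjusted p = 0.0694). All 5 cytokinesis and Aurora genes were negative in each age comparison, except that AUR1 was at 0.00 under water after quantile normalization or centring, whereas SIM and SMR1 were positive in each, between 0.11 and 0.31 and not called. Without 1 array at a time, calls in the dark fell to 0 whichever array was left out, and under water to 0 except without submerged juvenile replicate 2. On average over the treatments, CYCD3;1 stayed called without submerged juvenile replicate 2 or submerged adult replicate 2 and lost its call without any other array (adjusted p up to 0.113), and the other 2 genes lost theirs whichever array was left out (adjusted p up to 0.178).

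**Figure D3:**
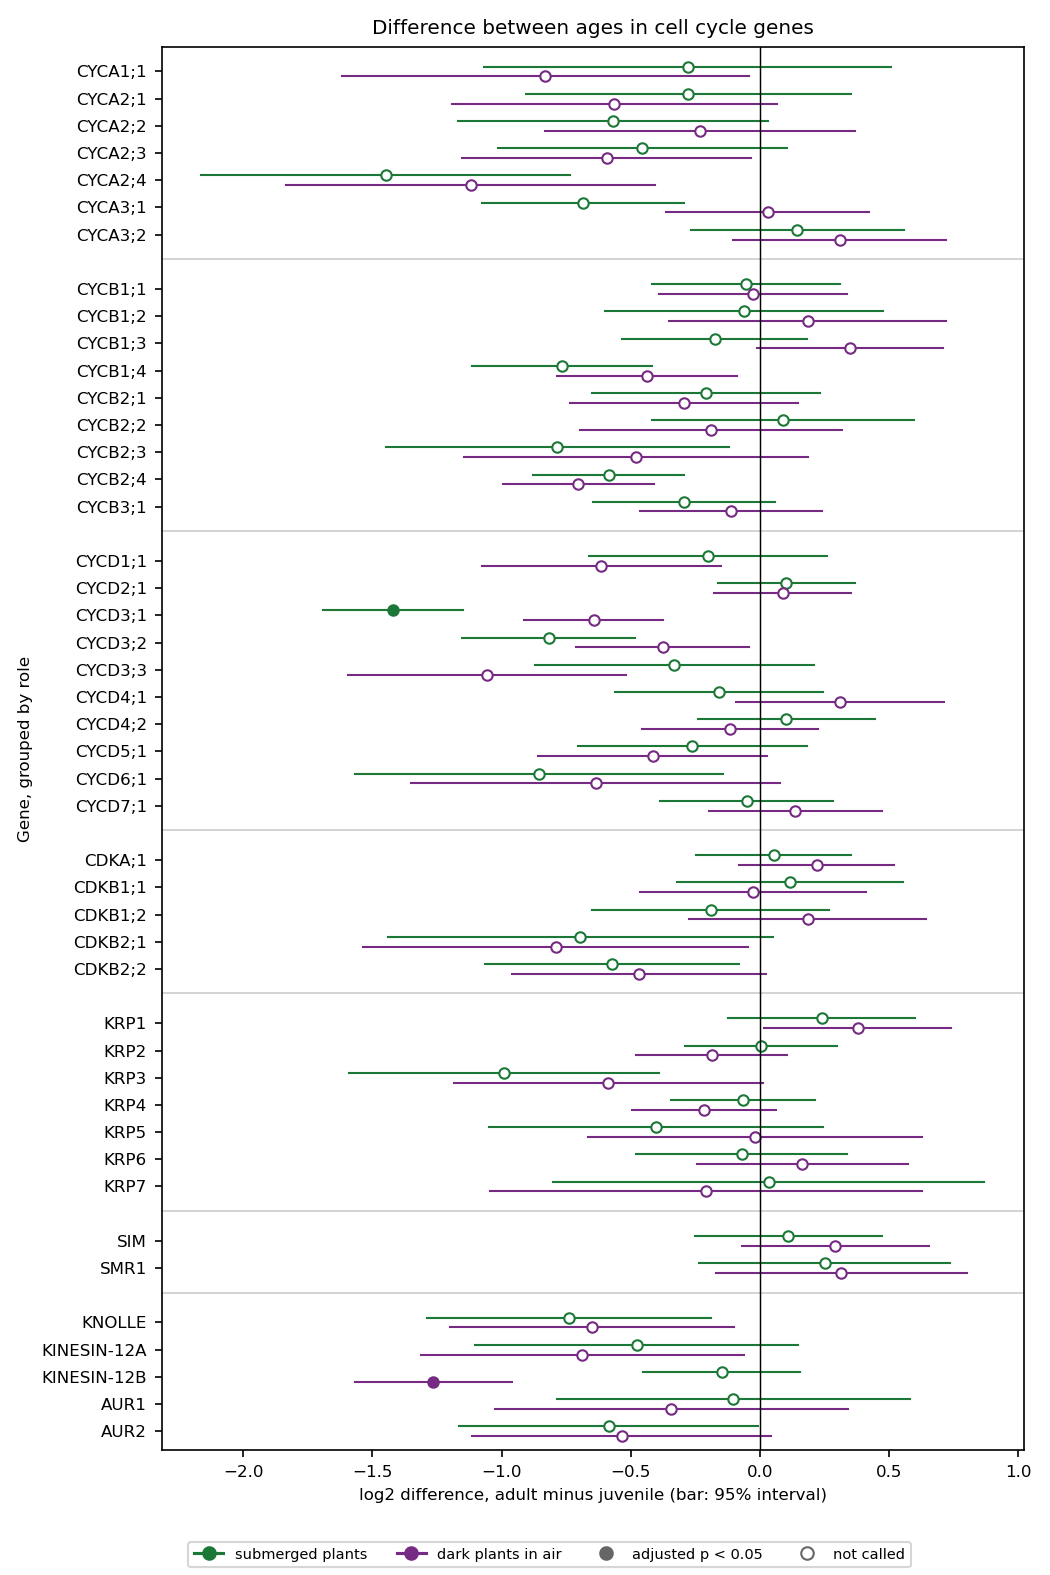
Difference in log2 level, adult minus juvenile, for each of the 45 genes in submerged plants and in dark plants without water. Points are limma estimates, bars are 95% intervals and filled points have an adjusted p under 0.05. Filled points are CYCD3;1 under water (-1.42) and KINESIN-12B in the dark (-1.26), and most open points lie left of 0.

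Among markers of young tissue, those of the shoot meristem and leaf primordium gave few calls. Averaged over 8 shoot meristem and leaf primordium markers, the level was 4.49 and 5.09 on the submerged adult arrays, 5.91 and 5.81 on the submerged juvenile arrays, 5.39 and 5.67 on the dark adult arrays, and 6.12 and 6.08 on the dark juvenile arrays. All 8 markers had negative adult-minus-juvenile estimates under water and on average, beside 47.2% and 47.8% of all loci. Their medians were -1.23 and -0.94. WUS under water, at -0.02, was smaller in size than the difference of -0.11 between array medians, so its sign could depend on scaling. None of the 8 was called (smallest adjusted p = 0.0789 and 0.0545, and 6 with an unadjusted p under 0.05 in each). Between submerged and dark adult shoots 2 of 8 were lower, AN3 at -1.74 and GRF5 at -1.96, both promoters of cell proliferation in young leaves, a share of 25% beside 18.9% of all loci, and between submerged and dark juvenile shoots none of 8 was called or had an unadjusted p under 0.05. WUS and CLV3, which define the stem cell niche, lay between 2.43 and 2.96 on all arrays. Of 7 stomatal lineage markers, 3 were lower in adult and 3 lower and 1 higher in juvenile shoots under water, among them TMM at -1.47 and -0.97, so that 42.9% of the list was called in adult and 57.1% in juvenile shoots, beside 33.6% and 34.2% of all loci. All 7 stomatal markers had negative adult-minus-juvenile estimates in the dark, under water and on average, with medians of -0.68, -0.59 and -0.50. Over all loci 49.1%, 47.2% and 47.8% of estimates were negative. Under water FMA and BASL, each at -0.03, were smaller in size than the -0.11 between array medians, so their signs could depend on scaling. Of the 7 only TMM was called, under water, at -1.22 (adjusted p = 0.0277), and on average, at -0.96 (adjusted p = 0.0242). PYK10, of the root list, was lower in adult than juvenile shoots under water, at -1.80 (adjusted p = 0.0423), and on average, at -1.26 (adjusted p = 0.0391). The part of these tissues in the differences of the division genes was not tested.

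The test of the adult response against the juvenile response called none of the 45 genes, beside 0% of all loci. By an unadjusted p under 0.05, 4 of the 45 genes and 2030 of the 27826 loci passed. KINESIN-12B had the smallest adjusted p of the 45 (0.276), with an adult response 1.12 ± 0.18 higher than its juvenile response, that is, less negative. CYCD3;1 followed, with an adult response 0.78 more negative (difference -0.78, adjusted p = 0.35). With a prior fitted to intensity and made robust to outlying loci, limma again called none of the 45, and 28 of all loci.

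Other genes of the cycle were read from 7 further lists with no member among the 45. Their counts stand beside 33.6% of all loci called in adult shoots (18.9% lower, 14.6% higher) and 34.2% in juvenile shoots (18.8% lower, 15.5% higher). Of 9 E2F, DP and RBR genes, which switch DNA synthesis genes on and off, 2 were lower and 1 higher in adult shoots, and 2 lower and 2 higher in juvenile shoots, or 33.3% and 44.4% called, which in adult shoots is close to the share of all loci. DEL2 (AT5G14960), an atypical E2F, had the largest adult change, at -1.77 (adjusted p = 0.00116), with 4.83 and 4.19 under water against 6.31 and 6.26 in the dark, and differed by -1.30 in juvenile shoots. DEL3 (AT3G01330) had the largest juvenile change, at -1.31 (adjusted p = 0.0149). The gene with the largest rise was E2FC (AT1G47870, ATE2F2 in RefSeq), an E2F that represses division genes, by 0.63 in adult and 0.88 in juvenile shoots (adjusted p = 0.00811 and 0.00174). RBR1 (AT3G12280), the retinoblastoma protein, was not called, at -0.26 and 0.28.

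Of 14 DNA replication genes, 7 were lower in adult and 4 in juvenile shoots, and none was higher at either age. CDC6 (AT2G29680), which loads the replicative helicase at origins, had the largest change, at -2.45 in adult and -2.48 in juvenile shoots (adjusted p = 0.00027 and 0.000236). It gave 5.51 and 4.93 in submerged adult shoots against 7.74 and 7.61 in dark adult shoots, and 5.33 and 4.96 in submerged juvenile shoots against 7.80 and 7.46 in dark juvenile shoots. The submerged arrays lay at or below 5.51 and the dark arrays at or above 7.46. Of 4 MYB3R genes, regulators of mitotic genes, the activator MYB3R-4 (AT5G11510) was lower, at -0.62 in adult and -0.69 in juvenile shoots (adjusted p = 0.0158 and 0.0101), and the other 3 were not called.

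Of 12 further mitosis and cytokinesis genes, 7 were lower and 1 higher at each age. BUB3.1 (AT3G19590), of the spindle checkpoint, had the largest adult change, at -1.56 (adjusted p = 0.000111), and differed by -1.17 in juvenile shoots. PLE (AT5G51600), a microtubule bundler of the phragmoplast, had the largest juvenile change, at -1.40 (adjusted p = 0.000588), and was not called in adult shoots, at -0.21. SNAP33 (AT5G61210), which also serves membrane fusion outside cytokinesis, was the gene that rose, by 0.64 in adult and 0.56 in juvenile shoots (adjusted p = 0.00406 and 0.0069). POK1, POK2 and BUB3.1 were lower in adult than juvenile shoots on average over the treatments, at -1.21, -0.71 and -0.68 (adjusted p = 0.0302, 0.0443 and 0.0443). POK1 and POK2 are kinesins that mark the division plane, and KINESIN-12B is of the same kinesin family.

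Of 7 activators and inhibitors of the anaphase-promoting complex, 1 was lower in adult and 2 in juvenile shoots, or 14.3% and 28.6% called, below the shares of all loci. The largest fall was that of CCS52A1 (AT4G22910, FZR2 in RefSeq), which promotes endoreduplication, at -1.53 in adult and -1.95 in juvenile shoots (adjusted p = 0.0324 and 0.0122). Of 6 CKS and CDK-activating kinase genes, 2 were lower in adult and 4 in juvenile shoots, led by CKS2 (AT2G27970), a small CDK-binding subunit, at -2.19 and -2.31 (adjusted p = 0.000266 and 0.000194). CKS2 gave 6.45 and 5.91 in submerged adult shoots against 8.25 and 8.48 in dark adult shoots, and 6.45 and 6.33 in submerged juvenile shoots against 8.84 and 8.55 in dark juvenile shoots. The submerged arrays lay at or below 6.45 and the dark arrays at or above 8.25. Of 11 loci listed as other SMR genes or WEE1, 3 were lower and 1 higher in adult, and 4 lower and 1 higher in juvenile shoots. The riser was SMR5 (AT1G07500), known for its response to oxidative stress, by 1.38 in adult and 1.63 in juvenile shoots (adjusted p = 0.0246 and 0.0123), opposite in sign to SIM and SMR1. The largest falls were at AT5G59360 in adult (-1.60) and AT2G28870 in juvenile shoots (-1.77).

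**Figure D4:**
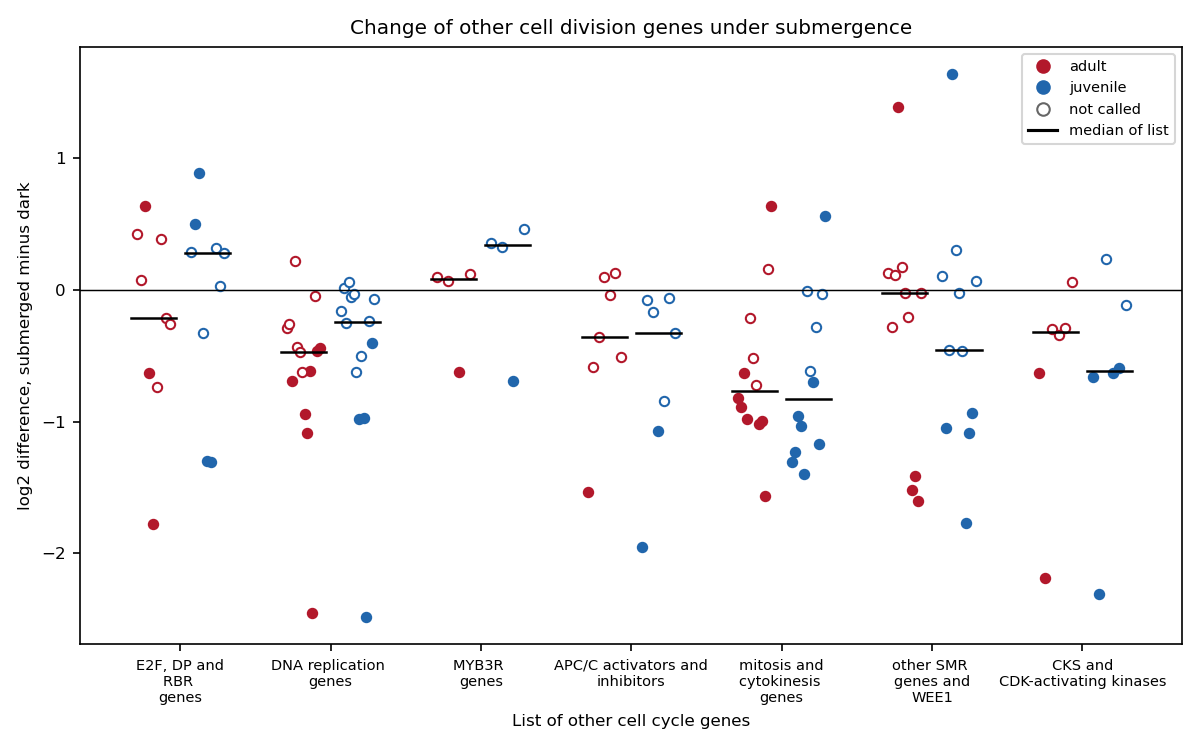
Each point is 1 gene of the 7 further lists, placed by its log2 difference, submerged minus dark, with adult shoots left of juvenile shoots in each list. Short bars mark list medians and filled points have an adjusted p under 0.05. The lowest points are CDC6 in the DNA replication list (-2.45 and -2.48) and CKS2 (-2.19 and -2.31), and the highest is SMR5 in juvenile shoots (1.63).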

How the data were processed

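The deposited table covers 27826 loci, with 1 value per array and 0 missing values. The authors' values are on the log2 scale, judged from their range, and the submitters' processing notes name RMA and limma without version or role. Array model, probe-to-locus map and genome build are not given in the sources used here, so no coordinates or sequences are printed. Probes shared by similar genes could mix their signals. Symbols came from a RefSeq table of TAIR10.1, which matched 27241 loci.

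From the log2 values as deposited, limma 3.58.1 (R 4.3.3) fitted 1 mean per group to all loci on all 8 arrays (4 residual degrees of freedom, prior 2.99), and 6 contrasts were tested two-sided with Benjamini-Hochberg adjustment over all loci. No locus was filtered out. With 2 arrays against 2, an exact permutation test of a single gene cannot go below 0.333, so none was used. The script was tested on simulated data. Alternatives were a stricter threshold, quantile normalization, median centring, a trended robust prior, removal of dim loci, a replicate block, the compared arrays alone, and leaving out each array. The labels do not say whether replicate numbers in the titles pair the samples. Deviations of same-numbered arrays from their group means correlated at -0.113 to 0.049. With 2 arrays per group this cannot show whether samples were paired.

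Members and lists were chosen with earlier results of these data known. Values on every array are given for members called with a change of at least 1, for members called between the ages, and for the largest and smallest change of each role. Array values of CYCD2;1, added as the D cyclin that rose, and of DEL2, CDC6 and CKS2 from the further lists were chosen after their values were seen. Of the further lists, the genes with the largest change in either direction at each age are named, with RBR1, POK1, POK2 and the marker genes named added after their values were seen. Precision is limited by the 2 arrays per group.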

Additional observations from a re-analysis of the deposited data

Results flagged for a closer look

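CYCD3;2 (AT5G67260), a cyclin of the D3 class, had estimates of opposite sign at the 2 ages, and neither response was called. Its arrays gave 8.13 and 8.43 in submerged adult shoots, against 8.50 and 8.52 in dark adult shoots, a difference of -0.23 (limma adjusted p = 0.268). In juvenile shoots they gave 8.99 and 9.20 under water, against 8.90 and 8.87 in the dark, a difference of 0.21 (adjusted p = 0.311). Both submerged arrays lay below the dark arrays in adult plants and above them in juvenile plants. The test of the difference between the responses gave -0.44, adult minus juvenile (95% interval -0.91 to 0.03), and did not call it (adjusted p = 0.71).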

How the results depend on the processing

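No called member changed direction under any alternative run. Of calls made in the main comparisons, 15 of 25 in adult and 12 of 22 in juvenile shoots were kept without each array in turn, as were 0 of 1 in the dark, 0 of 1 under water and 0 of 3 on average between the ages. Counts of members called moved as follows. Adult shoots: 15 at adjusted p under 0.01, 12 of the 17 members left without the dimmest 50% of loci, and 17 to 24 without 1 array. Juvenile shoots: 13 under 0.01, 12 of 17 without dim loci, and 13 to 26 without 1 array, with 14 without submerged juvenile replicate 1 and 13 without dark juvenile replicate 2. The median was -0.33 in adult and -0.16 in juvenile shoots without dim loci. Age in the dark: 0 under 0.01, with the 4 compared arrays alone and without any 1 array. Without dim loci it was also 0, since that filter removed KINESIN-12B, the gene called, before testing. Age under water: 0 under 0.01 and with the 4 arrays alone, 2 with the trended robust prior, and 0 to 1 without 1 array. Age on average: 0 under 0.01, 1 after quantile normalization, and 0 to 3 without 1 array. The difference between the responses called 0 members under every alternative run. With the replicate number as a block, 22 adult and 21 juvenile calls, 0 in the dark, 0 under water, 1 on average and 0 for the difference between responses were made. In a pairing with the submerged adult numbers crossed, chosen after seeing the data, the counts were 25, 23, 0, 0, 1 and 0. Fewer loci or arrays enter under the dim filter, the 4-array fits and the single-array omissions, and otherwise the cause was not tested.

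With 2 arrays per group and no probe-level background, no gene can be called undetected, and the size of changes near the bottom of the scale is uncertain. Median centring took the share of juvenile calls over all loci that were lower to 65.7%, against 54.8% as deposited, and of calls between ages in the dark to 46.7%, against 26.7%.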

Other observations

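Among the marker lists, PI (AT5G20240), a floral organ identity gene, stood apart from the other 4 flower markers. It gave 8.83 and 8.97 in submerged adult shoots, against 5.75 and 5.76 in dark adult shoots, and 8.95 and 8.53 in submerged juvenile shoots, against 5.89 and 5.62 in dark juvenile shoots. The differences were 3.14 and 2.99 (limma adjusted p = 3.54e-05 and 3.47e-05), while AP1, LFY, AG and AP3 were not called at either age. SPCH (AT5G53210), which starts the stomatal lineage, was higher in juvenile shoots under water, by 1.44 (adjusted p = 0.0257), and was not called in adult shoots, at 1.15 (adjusted p = 0.0579), while FMA, TMM and EPF1 of the same lineage were lower at both ages. PYK10 (AT3G09260) was lower under water, at -2.21 in adult and -1.13 in juvenile shoots (adjusted p = 0.000236 and 0.00458). Its part in the age differences was not tested.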
